A study of Caenorhabditis elegans with 2 samples.

Results

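The homeobox genes of Caenorhabditis elegans were examined in peak lists from ChIP-seq, chromatin immunoprecipitation followed by sequencing, of the nuclear hormone receptor NHR-179. The set was taken by symbol from the protein-coding genes of the WBcel235 annotation, the assembly also called ce11. It held every symbol of ceh followed by a number, 63 genes, and 14 genes listed by name (lin-39, mab-5, egl-5, vab-7, lin-11, lim-4, lim-6, lim-7, mec-3, unc-4, unc-86, ttx-3, unc-30 and pal-1), which made 77 of 19973 nuclear protein-coding genes. The samples were 2 biological replicates, numbered 2 and 3 in the labels, of strain OP465 (unc-119(tm4063) III; wgIs465). The line stably carries NHR-179 tagged C-terminally with GFP and FLAG. The labels describe the precipitation as done with an antibody to GFP, although their antibody field names nhr-179. Young adult hermaphrodites were collected 64 hours after release from starvation as L1 larvae. Both replicates carried the transgene and the unc-119 mutation and formed 1 group, and no untagged strain was analysed here. Whole animals were used, so a peak cannot be assigned to a tissue, and whether a peak reflects binding of NHR-179 was not tested.

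Homeobox genes encode transcription factors that bind DNA through the homeodomain, often at short sites rich in A and T. In this nematode the Hox genes pattern the body from anterior to posterior, while LIM, POU and paired-like homeobox genes set and maintain the identities of individual neurons. CUT genes carry a second DNA-binding domain beside the homeodomain, and TALE genes encode partners of Hox proteins. The family therefore gives a view of peaks at regulators of development in an adult, in which many of these genes are active in few cells.

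The authors deposited a peak list for each replicate, a list from the pooled reads, and an optimal list of peaks that passed a reproducibility threshold between replicates (IDR, the irreproducible discovery rate). On ce11 they held 12866, 13745, 9606 and 256 peaks in the order replicate 2, replicate 3, pooled and optimal. The first 3 of these include background regions by their deposited description. The optimal list was identical to the 256 pooled peaks of highest signal, the authors' value for each peak, whose scaling is not stated. The files hold no counts, so the depth of the samples is unknown. A gene was given every summit, the position of a peak's highest point, that lay within 1000 bp of any of its transcript starts or inside the gene.

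No homeobox gene had a summit in the optimal list. Among all protein-coding genes 169 had one, or 0.846%, which over 77 genes would be 0.652 genes. The exact Clopper-Pearson 95% interval of 0 of 77 reaches 4.68%, and 3 of 77, the limit taken for a count of 0, would be 3.9%, so a share equal to that of all genes was not detectable at this number of genes. The nearest approach was made by ceh-38, a gene of the ONECUT class, whose pooled summit ranked 324 with a signal of 68.8, or 68 places after the last optimal peak. The lowest signal in the optimal list was 74.7.

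The pooled list held a summit for 22 homeobox genes (28.6%, exact Clopper-Pearson 95% interval 18.8 to 40%), against 31.2% of all protein-coding genes. These intervals cover counting error over genes only. In the list of replicate 2 there were 31 homeobox genes (40.3%, 29.2 to 52.1%), against 38.8% of all genes, and in that of replicate 3 there were 38 (49.4%, 37.8 to 61.0%), against 41.7%. A total of 7 homeobox genes (9.09%, 3.73 to 17.8%) had a pooled summit with a summit within 100 bp in both replicate lists, here called a shared summit, against 9.63% of all genes. In each of these lists the value of all genes lay inside the interval of the homeobox genes. In neither replicate list were 30 homeobox genes (39%), against 43.1% of all genes, and these 30, ceh-13 and unc-4 among them, had no pooled summit either.

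**Figure D1:**
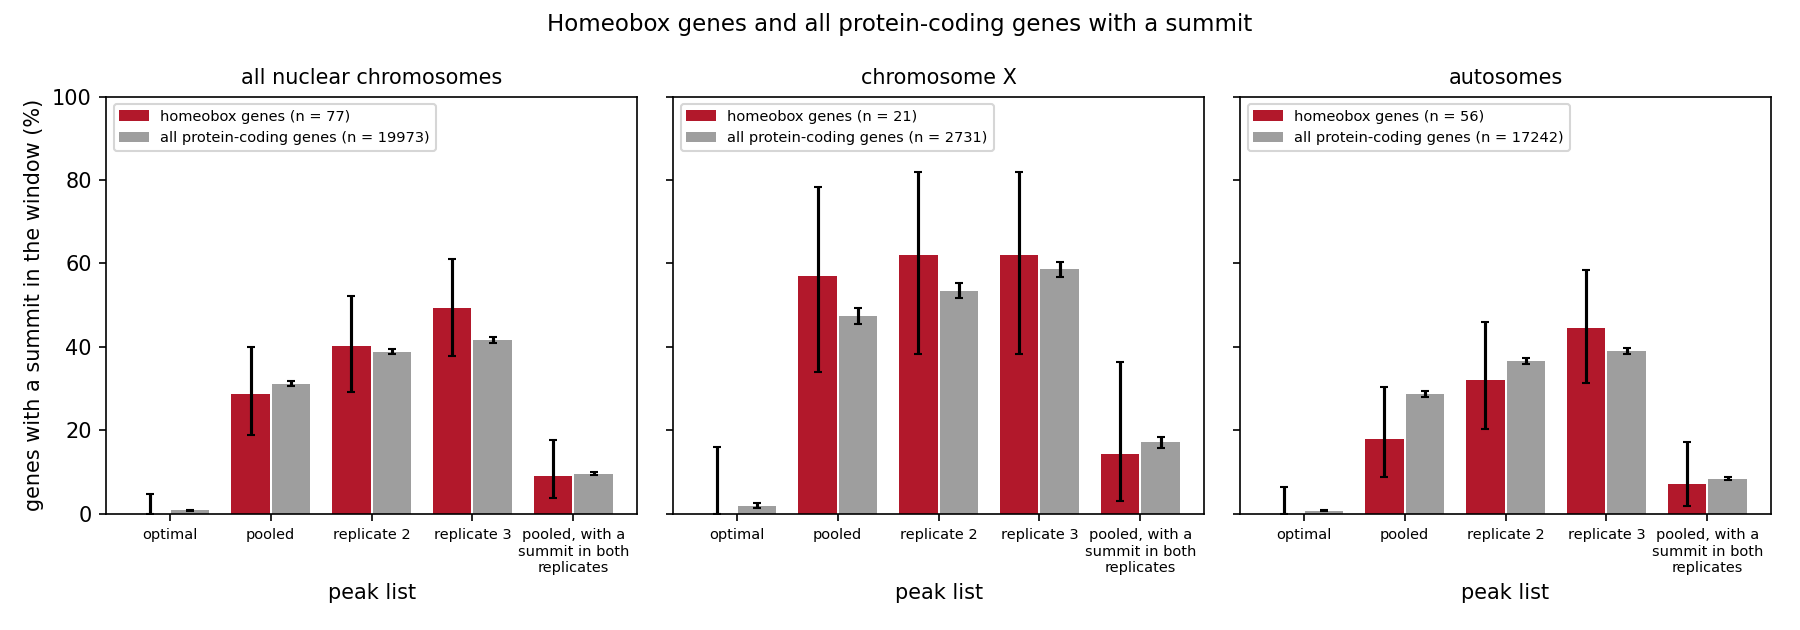
Bars give the percentage of homeobox genes and of all nuclear protein-coding genes with a summit in their window, for each peak list, over all nuclear chromosomes, chromosome X and the autosomes, with exact Clopper-Pearson 95% intervals. The bars for the pooled list over all chromosomes stand at 28.6% for homeobox genes and 31.2% for all genes, and the optimal list has no homeobox gene.

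Chromosome X carried 21 of the 77 homeobox genes (27.3%), against 13.7% of all protein-coding genes, and X also held 27.5% of the nuclear pooled peaks. On X, 12 of the 21 homeobox genes had a pooled summit (57.1%, 34 to 78.2%), against 47.3% of all genes on X. On the autosomes 10 of 56 had one (17.9%, 8.91 to 30.4%), against 28.7% of all autosomal genes. Shared summits were held by 3 of 21 homeobox genes on X, against 17.1% of all genes there, and by 4 of 56 on the autosomes, against 8.45%. Chromosome V stood apart, with no pooled summit at any of its 12 homeobox genes (interval up to 26.5%), against 29.4% of all genes on V. Replicate 2 had a summit at 2 of these 12, against 35.9% of all genes on V, and replicate 3 at 5, against 40.5%. In either replicate list were 6 of the 12, against 11361 of the 19973 protein-coding genes of all nuclear chromosomes. V was singled out among the chromosomes after the values were seen, and these differences were not tested.

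The windows of homeobox genes were longer than most, with a median of 4052 bp, against 3045 bp for all protein-coding genes, so summits were also counted per length. The merged homeobox windows covered 371 kb and held 29 pooled summits, or 7.82 per 100 kb (exact Poisson 95% interval 5.24 to 11.2), against 10.1 per 100 kb in the merged windows of all protein-coding genes. On X the rate was 13.8 (7.73 to 22.8), against 15.8. On the autosomes it was 5.34 (2.92 to 8.96), against 9.05, a value just above that interval. The autosomal rates of replicate 2 (10.3, 6.78 to 15, against 12.4) and replicate 3 (11.4, 7.72 to 16.3, against 13.1) each had the value of all genes inside their interval. For shared summits on the autosomes the rate was 2.29 per 100 kb (0.84 to 4.98), against 2.17. Among the rates given here, only that of the pooled list on the autosomes had the value of all genes outside its interval. The share of autosomal homeobox genes with a pooled summit (8.91 to 30.4%) had the value of all genes (28.7%) inside. The difference in rate was not tested. The shared rate rests on 6 autosomal summits, and its wide interval cannot show whether the rate was also low among them.

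The pooled summits of homeobox genes were of ordinary strength for the pooled list. Their median signal was 35.7, against 36.2 over all 9583 nuclear pooled summits, and 14 of the 29 lay above that value. Their signals ran from 30.2 to 68.8, while nuclear peaks of the whole list reached 328.9. In the replicate lists the medians were 19.3 in replicate 2 and 18.5 in replicate 3, against 19.8 and 19.3 over all nuclear summits of those lists. The authors' −log10 of the q-value is low where q is large. In the pooled list it was 1.63 at the highest summit of ceh-38, 1.43 at ceh-39 and 0.82 at the highest of ceh-21. Every other pooled summit of a homeobox gene was lower, with 0.08 at unc-86 and 0.02 at pal-1. Most of these calls thus had a large q-value. Of the 29 summits, 9 were shared (31.0%), against 24.5% of all nuclear pooled summits. A further 11 had a summit within 100 bp in replicate 2 alone, 6 in replicate 3 alone and 3 in neither. A summit within 200 bp of a tRNA, snoRNA, snRNA or rRNA gene was found 3 times (10.3%), at ceh-2, ceh-43 and ceh-99, against 5.83% of all nuclear pooled summits and 66.5% of the nuclear optimal summits.

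**Figure D2:**
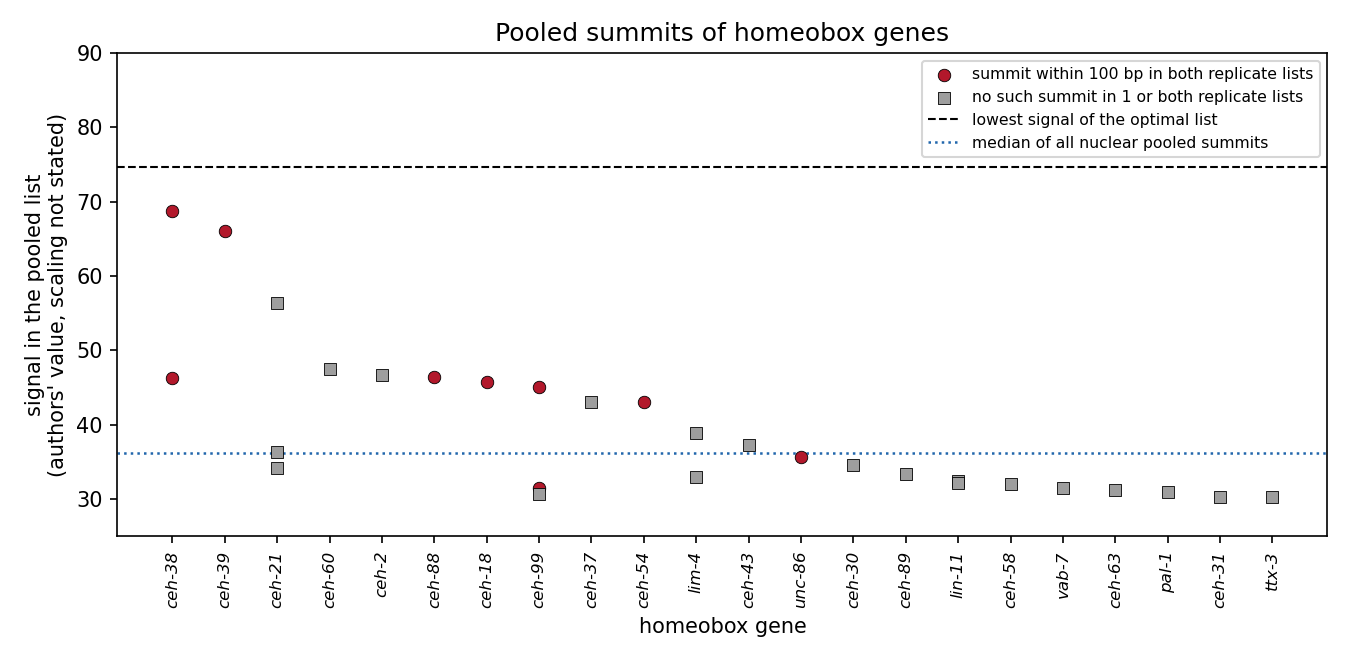
Each point is a pooled summit of a homeobox gene, with the authors' signal on the vertical axis and genes ordered by their highest summit. Filled circles are the 9 summits shared with both replicates. The highest points are ceh-38 at 68.8 and ceh-39 at 66.0, both under the lowest signal of the optimal list, 74.7.

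The CUT class held the highest of these summits. Of the 6 genes counted here as CUT, 3 (ceh-21, ceh-38 and ceh-39) had a pooled summit and 2 a shared one. Over all protein-coding genes the shares were 31.2% and 9.63%. The gene ceh-38 (WBGene00000459, chromosome II from 6951526 to 6955409) had a pooled summit 41 bp upstream of its nearest start, in the peak from 6951263 to 6951706 (signal 68.8). In replicate 2 the partner summit had a signal of 34.6 and ranked 550. In replicate 3 it had a signal of 33, ranked 584 and stood 83 bp from that of replicate 2. The replicates thus placed this peak at similar ranks. The replicate 3 summit lay 110 bp from the start of malt-1, nearer than any start of ceh-38, so the peak stands between neighbouring genes. A second shared summit, at the other end of ceh-38 in an untranslated exon (signal 46.3), lay nearest to a start of tra-2, a gene of sex determination, at 1651 bp. Its signal was 29.3 in replicate 2 and 28.7 in replicate 3.

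On X, the CUT genes ceh-41, ceh-21 and ceh-39 lie side by side within 9565 bp, from 1846608 to 1856172, and this stretch and its flanks held 4 pooled summits. The gene ceh-39 (WBGene00000460, from 1853874 to 1856172, minus strand) is known as an X signal element, a gene whose dose helps to set sex. Its pooled summit lay 189 bp upstream of the start with a signal of 66.0, rank 365. The partner in replicate 2 had a signal of 37.4 (rank 409) and that in replicate 3 a signal of 25.6 (rank 2017), so the peak was ranked much higher in replicate 2. Its neighbour ceh-21 had 3 pooled summits, with signals of 56.3, 36.3 and 34.2. None was shared, since replicate 3 had no summit within 100 bp of any of them. The closest replicate summits at ceh-21 were 152 bp apart, at rank 898 in replicate 2 and 1111 in replicate 3. For ceh-41 there was 1 summit, in replicate 2, with a signal of 30.1. The summit window of ceh-39 is shown because it was the highest of an X-linked member and had the most G and C of the shared summits, 60.4%, against a median of 39.6% over all nuclear pooled summits. It is given on the plus strand of ce11, from 50 bp before to 50 bp after the summit (chrX:1856311-1856411), and holds none of the searched motifs.
ceh-39: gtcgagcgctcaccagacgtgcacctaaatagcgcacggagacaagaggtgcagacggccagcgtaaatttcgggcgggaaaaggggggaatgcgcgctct

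Of the 3 POU genes, ceh-18 and unc-86 had a shared summit, while ceh-6 had none in any list. Over all protein-coding genes 9.63% had a shared summit. The gene unc-86 (WBGene00006818, III from 8212740 to 8216336) specifies many neurons, among them the touch receptor neurons. Its summit lay 25 bp upstream of the nearest start, with a signal of 35.7 (rank 5133), near the median of the list. In replicate 2 the partner had a signal of 17.5 (rank 9994) and in replicate 3 a signal of 19.5 (rank 6692), with the summits 30 bp apart. The position recurred closely, while the signal was below the median of the list in replicate 2 (19.8) and close to it in replicate 3 (19.3). The gene ceh-18 (WBGene00000441, X from 3843367 to 3857797), which acts in gonadal sheath cells to control oocyte maturation, had its summit in an intron 4273 bp from the nearest start (signal 45.7, rank 1748). The partner had a signal of 31.9 in replicate 2 (rank 793) and 18.1 in replicate 3 (rank 8826). The list of replicate 2 had 5 summits at ceh-18 and that of replicate 3 had 2, of which 1 pair coincided.

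The other shared summits belonged to ceh-54, ceh-88 and ceh-99, divergent homeobox genes. At ceh-88 (WBGene00008195, IV from 17329188 to 17332435) the summit lay in an intron 395 bp after the start, with a pooled signal of 46.4, and signals of 20 in replicate 2 and 26.0 in replicate 3. At ceh-99 (WBGene00044032, II from 12519981 to 12524478) the higher of the shared summits lay 271 bp upstream of the start, with a pooled signal of 45.1. Its partner was weak in replicate 2 (16.4, rank 12153) and stronger in replicate 3 (27.9, rank 1311). The lower one, 870 bp upstream, lay inside the snoRNA gene T21B4.20 and nearer to the start of srh-70 (signal 31.4), and 1 more pooled summit of ceh-99 had no partner in replicate 2 (signal 30.7). The summit of ceh-54 (WBGene00020485, X from 6191605 to 6194241) stood 1 bp from its start, in the coding exon, with signals of 43.1 pooled, 18.2 in replicate 2 and 27.2 in replicate 3. The replicate summits of ceh-54 were 134 bp apart, on either side of the pooled one.

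Of the 9 shared summits, 5 lay upstream of the gene, 2 in introns, 1 in a coding exon and 1 in an untranslated exon, and 7 (77.8%) were within 1000 bp of a start of their gene. Among all shared summits of protein-coding genes 61.4% were. Over the 29 pooled summits the share within 1000 bp of a start was 62.1%, against 60.5% of the pooled summits of all protein-coding genes. In the replicate lists it was 61.2% in replicate 2, against 59.7%, and 46% in replicate 3 (23 of 50), against 59.6%, so the share near starts was lower for homeobox genes in replicate 3, a difference that was not tested. For all genes the distance was taken to the nearest gene whose window held the summit. Introns held 13 of the 29, coding exons 7, sequence upstream of the gene 7 and untranslated exons 2.

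**Figure D3:**
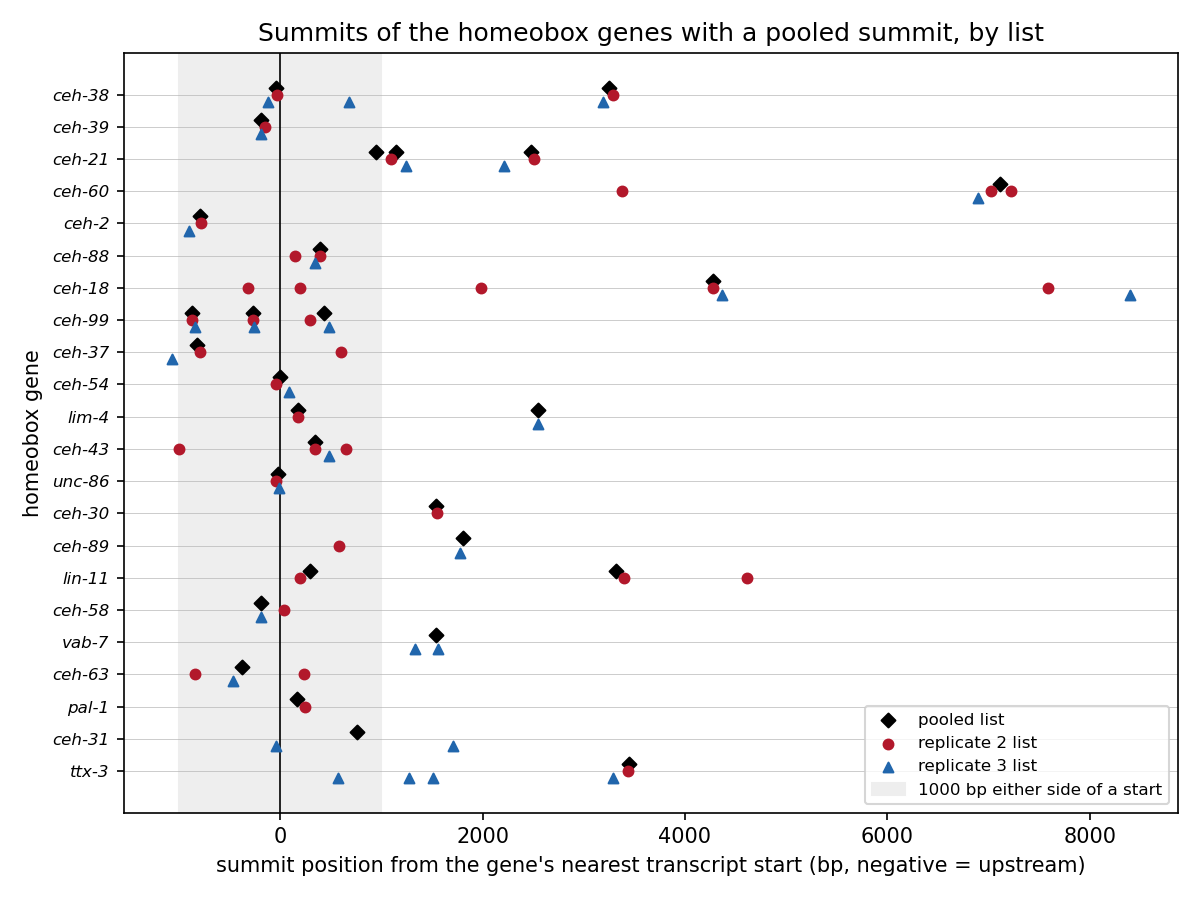
Summit positions in bp from the nearest transcript start of the gene (negative is upstream) are shown for the 22 homeobox genes with a pooled summit, in the pooled, replicate 2 and replicate 3 lists. At ceh-38, ceh-39, unc-86 and ceh-99 the symbols of all 3 lists stand together near the start, while at lim-4 the symbols of the replicates stand apart.

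Among the LIM genes, lin-11, ttx-3 and lim-4 of 7 had a pooled summit and none a shared one. Over all protein-coding genes the shares were 31.2% and 9.63%. Replicate 2 had a summit at 4 of the 7 and replicate 3 at 6, against 38.8% and 41.7% of all protein-coding genes. The gene lim-4, which sets the identity of the AWB olfactory neurons, had pooled summits with signals of 38.8 and 33. Replicate 3 alone matched the first, 1 bp away with a signal of 23.0, and replicate 2 alone the second, 1 bp away with a signal of 20.5. The closest summits of the replicates at lim-4 were 2370 bp apart, so each replicate marked another place in the gene. At lin-11, needed for vulval cell lineages and several neurons, the pooled signals were 32.4 and 32.2. Replicate 2 had 3 summits at lin-11, of signal 30.3, 21.3 and 19.1, and replicate 3 had none. At ttx-3, which specifies the AIY interneuron, a single pooled summit of signal 30.2 stood beside 1 summit in replicate 2 and 4 in replicate 3. The 4 had signals of 15.7 to 19.8, at ranks 6312 to 13702 of that list.

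The remaining LIM genes had summits in replicate lists only. At lim-6 the single summit of replicate 2 (signal 19.2) was 489 bp from the nearer of the 2 in replicate 3 (19.7 and 16.0). At lim-7 replicate 3 had summits of 23.6 and 20.8 and replicate 2 had none. The gene mec-3, the partner of unc-86 in touch receptor neurons, had 1 summit 188 bp upstream of its start in replicate 3, with a signal of 17.8 and rank 9204. None was found there in replicate 2, unlike at unc-86. For ceh-14 there was 1 summit, in replicate 3, with a signal of 18.7.

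The 4 Hox genes of the set (ceh-13, lin-39, mab-5 and egl-5) had no summit in the optimal or pooled list or in that of replicate 2. Over all protein-coding genes 0.846%, 31.2% and 38.8% had one in these lists. The posterior Hox gene nob-1, which the choice by symbol left out, was singled out after its values were seen. It had a pooled summit in an intron (signal 33.5, rank 6543) that was not shared. Replicate 3 had 1 each at lin-39 (signal 17.4, rank 10059), mab-5 (16.8, rank 11181) and egl-5 (19.7, rank 6367), all within the genes, which act in the middle and posterior body. The anterior Hox gene ceh-13 (III from 7555660 to 7558041), a neighbour of lin-39, had none. These 3 summits ranked 6367 to 11181 in a list of 13745 peaks that includes background regions. Of all protein-coding genes 41.7% had a summit in that list. The Caudal gene pal-1, a regulator of posterior fate in the embryo, had a pooled summit of signal 30.9 in an intron, matched by replicate 2 (24.1) and not by replicate 3. The Even-skipped gene vab-7 had one of 31.4, also in an intron, matched by replicate 3 (15.8) and not by replicate 2.

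Of the 8 genes listed here as paired-like, ceh-37 alone had a pooled summit, against 31.2% of all protein-coding genes. Its signal was 43.1, with a partner in replicate 2 (21.1) and none within 100 bp in replicate 3. The gene unc-42, outside this list and singled out after its values were seen, had a pooled summit of signal 37.3 that was not shared. The motor neuron gene unc-4 had no summit in any list. The gene unc-30, which controls the GABA neurons of the ventral cord, had 1 in replicate 2 with a signal of 19.5. Among the TALE genes ceh-60, which acts with unc-62 on yolk gene expression in the intestine, had a pooled summit of signal 47.5 in an intron, 7115 bp from its start and closer to ets-4. The highest replicate summits at ceh-60 had signals of 37.9 in replicate 2 (rank 391) and 34.8 in replicate 3 (rank 460). They lay on either side of the pooled summit and more than 100 bp from it. Replicate 2 had a further, lower summit 93 bp from the pooled one (signal 21.6, rank 4629), so the peak was not counted as shared because replicate 3 had no summit within 100 bp. The Sine oculis class genes ceh-32, ceh-33 and ceh-34 and the 6 genes listed as NK had no pooled summit, against 31.2% of all protein-coding genes. Such small numbers of genes say little about a class. The gene unc-39, which the choice by symbol left out, had a pooled summit of signal 31.4 that was not shared. It too was singled out after its values were seen.

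At the level of genes, 22 homeobox genes had a summit in both replicate lists, 71.0% of the 31 in replicate 2 and 57.9% of the 38 in replicate 3, against 60.8% and 56.7% over all protein-coding genes. At the level of summits, 9 of the 49 in replicate 2 (18.4%, 8.76 to 32%) had a summit within 100 bp in replicate 3, against 17.9% of all nuclear summits of that list. The closest summits of the replicates were within 100 bp at 7 of the 22 genes (31.8%), against 39.1% of the 4720 protein-coding genes in both lists. At 9 more (40.9%, against 25.8%) the summits were farther apart but peak intervals overlapped, and at 6 (27.3%, against 35%) no intervals overlapped. Of the 22 genes, 5 had no pooled summit (ceh-16, ceh-49, ceh-8, ceh-86 and lim-6). How many of the 4720 protein-coding genes lacked one was not counted, so whether 5 of 22 is unusual cannot be said. At ceh-16, the engrailed gene, the replicate summits were 11 bp apart in a coding exon near the start, with signals of 16.6 in replicate 2 and 24.1 in replicate 3. At ceh-8 replicate 2 had the highest-ranked summit of any homeobox gene in that list (signal 45.8, rank 203). This summit stood on the last base of the gene, at the end of an untranslated exon and so at the edge of its window. It was 542 bp from the start of col-63, nearer than any start of ceh-8, while the nearest summit of replicate 3 in ceh-8 was 1098 bp away. The genes ceh-8 and ceh-16 were singled out after their values were seen.

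The sequences within 50 bp of the 29 pooled summits were searched on both strands for the motifs below. The homeodomain core TAATTA was in 2 of the 29 windows (6.90%), against 6.07% of all nuclear pooled summits and 6.48% of windows of the same length, 101 bp, ending at the starts of all protein-coding genes. The nuclear receptor core AGGTCA was in 3 (10.3%), those of ceh-88, ceh-99 and ceh-63, against 2.79% of all nuclear pooled summits and 3.11% of the windows at starts. The difference rests on 3 windows and was not tested. The variant AGTTCA was in 2 (6.90%, against 5.41% and 7.26%), and GGGTCA in none (against 1.59% and 1.75%). GAGAGA was in 2 (6.90%, against 7.33% and 8.80%) and TTTTTTTT in 1 (3.45%, against 8.29% and 15%). The Hox and PBX site TGATNNAT was in none, against 7.15% and 8.02%, and GCGCAGGG in none, against 0.125% and 0.035%. A match says that the letters are present and not that a factor is bound.

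Of the windows that hold AGGTCA or TAATTA, 3 are shown, with every searched motif in capitals, on the plus strand of ce11 and 5′ to 3′. They lie at chrIV:17329533-17329633 for ceh-88, chrX:3672846-3672946 for ceh-63 and chrII:10369740-10369840 for ceh-58. In ceh-88 both motifs stand in 1 window, of 27.7% G and C. In ceh-63 the receptor core is on the minus strand and so reads TGACCT. The genes ceh-58 (summit 193 bp upstream, signal 32, a partner in replicate 3 only) and ceh-63 (summit in an intron, signal 31.2, a partner in replicate 3 only) were singled out after their values were seen.
ceh-88: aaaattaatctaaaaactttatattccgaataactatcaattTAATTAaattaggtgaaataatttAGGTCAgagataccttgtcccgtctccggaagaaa
ceh-63: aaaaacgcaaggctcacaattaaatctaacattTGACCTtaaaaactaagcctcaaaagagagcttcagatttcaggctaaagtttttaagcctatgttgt
ceh-58: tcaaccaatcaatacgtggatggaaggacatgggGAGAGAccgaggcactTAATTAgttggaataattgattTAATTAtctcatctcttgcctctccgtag

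Other homeobox genes, which the choice by symbol left out, were also counted. Of 24 such genes none had an optimal summit, 10 had a pooled summit and 4 (vab-3, dve-1, unc-62 and psa-3) a shared one, against 31.2% and 9.63% of all protein-coding genes. The Pax6 gene vab-3 had a shared summit just upstream of a start, with a signal of 58.5, rank 592. The TALE gene unc-62 had one of 58.1, rank 612, in a coding exon 116 bp after a start. Both rank below the summits of ceh-38 and ceh-39. Among 7 partners and Polycomb-type regulators of homeobox genes, 1 had an optimal summit, 4 a pooled summit and 2 a shared one. Over all protein-coding genes the shares were 0.846%, 31.2% and 9.63%. The optimal summit was that of sor-3, with a signal of 89.3, rank 162. It lay inside a tRNA gene upstream of the start of sor-3 and was not shared. The Polycomb-type gene mes-6 had a shared summit upstream of the gene, with a signal of 60.7, rank 501. The partner of LIM proteins, ldb-1, had 4 pooled summits with signals of 31.3 to 44.8, of which 2 were shared.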

How the data were processed

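ChIP-seq peak lists of 2 replicates were analysed. On ce11, peaks of each replicate and of the pool were called against a control, per the descriptions deposited with the files. The aligner, peak caller, versions and thresholds are not given in the sources used here. The authors deposited for each peak a signal value, of unstated scaling, and the −log10 of a q-value. The signal served to rank and describe peaks within a list. The lists on ce10 were not used. The files analysed give no counts, so depth is unknown.

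Genes came from Ensembl release 115 (WBcel235) and sequence from the RefSeq copy of that assembly. Peaks on every nuclear chromosome ended within its length. RefSeq names 1 further gene ceh-44, which Ensembl calls cone-1, and it was not counted. Summits were assigned, and replicate summits paired, with Python 3.11.15, and intervals (95%) came from SciPy 1.17.1. The assignment was tested on simulated summits. With 1 group there was no comparison between groups and no test was run. The members, gene lists and motifs were chosen with earlier results of these data known. Named were all members with an optimal or shared summit, the 10 with the highest pooled signal, the 5 with the most pooled summits, the 14 listed by name with ceh-13, and genes whose start is nearer to a described summit. Other genes were named after their values were seen. Windows that cover untranslated exons were not printed, which leaves out those of ceh-38 and unc-86. The sequence of 1 further window is not reported here.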

Additional observations from a re-analysis of the deposited data

How the results depend on the processing

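The optimal count stayed 0 under every alternative except a list of pooled peaks double the optimal length and the one without replicate 3. The longer list gave 2 genes, against 1.94% of all protein-coding genes. The 256 highest peaks of single replicates gave 0 without replicate 2 and 1 without replicate 3, against 0.916% and 0.881%. The pooled count of 22 was 12 in the upper 50% of pooled peaks and 3 in the 1000 highest, and 31 to 38 in the replicate lists alone. In these settings the shares of all protein-coding genes were 18%, 4.07% and 38.8 to 41.7%. The pooled count was 33 with 2000 bp around starts (all genes 39.5%). It was 27 where 1 bp of the peak interval in the window was enough (34.6%), and 21 with the nearest start only (25.2%). The homeobox share, below that of all genes in the main setting, was above it in these settings and in the single replicate lists. It stayed below with 500 bp around starts (21 genes, all genes 27.5%) and with starts only (16, all genes 22.2%). Without summits near small RNA genes it was below too (20, all genes 30.1%), as in the upper 50% and the 1000 highest pooled peaks. The shared count of 7 was 12 with 2000 bp around starts, 2 in the 1000 highest pooled peaks, 4 with 50 bp, 11 with 200 bp and 14 with overlapping intervals as the limit for sharing, where 12.7%, 3.07%, 6.06%, 12.7% and 14.5% of all protein-coding genes were counted. Leaving out a replicate gives no shared count, which needs both. The rate of 7.82 per 100 kb was 3.77 in the upper 50% of pooled peaks (all genes 5.13) and 13.2 to 13.5 in single replicates (13.6 to 14.5). Longer and shorter lists raise and lower such counts by construction. Gene windows of 500 bp, starts only, nearest start only and leaving out summits near small RNA genes kept each count within 1.5 times. With ceh-44, added after the data were seen, the pooled count was 23. No paired analysis was possible because there is 1 group. The number of members, 77, limits the precision.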
